A study of Marchantia polymorpha with 12 samples.

Results

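In thalli of the liverwort Marchantia polymorpha, 65 of 19421 genes had a higher transcript level in the line labelled Mperf15ko than in the accession Tak-1, both without wounding and after it. A gene was taken when its mean level was at least 2 TPM in Mperf15ko control and in Mperf15ko wounded thalli, and when each of those means was at least 2 times the Tak-1 mean of the same condition. TPM is a level scaled by transcript length and by the total of a library, so genes can be compared on it. The genes were thus chosen by the mean TPM of all 4 groups, and every genotype difference given for them is a description without a test. The rule did not use the wound contrasts as such, and these were tested. It did limit them: both Mperf15ko means had to reach the floor, and both genotype ratios the same limit, which leaves out genes whose response differs enough to bring 1 ratio under it.

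The compared groups were wounded Mperf15ko, wounded Tak-1, control Mperf15ko and control Tak-1, with 3 libraries each and thalli 14 days of age in every group. Tak-1 is a male laboratory accession, and the series names Mperf15ko for the transcription factor gene MpERF15. Wounded thalli were collected 1 h after injury, and control thalli were left intact. Every library came from its own set of 12 plants. Not given in the sources used here are the lesion of Mperf15ko and whether its libraries came from 1 line or several.

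MpERF15 belongs to the AP2/ERF family, plant transcription factors that bind DNA through a conserved domain and that act in stress, wound and hormone responses. Such factors can raise or lower the transcription of their targets. A thallus is the flat body of the liverwort, with photosynthetic tissue in air chambers above and storage tissue and rhizoids below. The 65 genes were chosen on levels, not from a pathway. They are ordered here as transporters, dirigent proteins and peroxidases, MpDOXC31 and MpCAT4, a transcription factor, genes without a symbol and runs of neighbouring genes.

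MpERF15 (Mp7g09350) was measured first as a check of the labels. It had 1.94, 3.40 and 1.68 TPM in control Mperf15ko, against 1.498, 1.83 and 1.64 TPM in control Tak-1. After wounding it had 17.1, 20.2 and 40.6 TPM in Mperf15ko, against 20.1, 34.7 and 34.6 TPM in Tak-1. The genotypes overlapped in the control and in the wounded thalli, and neither genotype comparison passed the test (edgeR quasi-likelihood log2 fold change 0.50, SE 0.42, adjusted p = 0.41 in controls; -0.20, SE 0.30, adjusted p = 0.66 in wounded thalli). The level of this transcript thus does not check the label, and each genotype direction below rests on the label.

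Libraries held 17.2 M to 30.4 M estimated reads. Of the 65 genes, 62 had enough reads for the test, among 14246 tested genes, and 56 would have been tested on the Tak-1 libraries alone. Thallus markers were present in every library, with MpNOP1, needed for air chambers, at 14.4 to 28.4 TPM and MpRBCS, the small subunit of Rubisco, at 332 to 603 TPM. MpRBCS averaged 355 TPM in control Mperf15ko and 479 TPM in control Tak-1, and 419 and 563 TPM in the wounded thalli of Mperf15ko and Tak-1, and was called lower in Mperf15ko in both conditions (log2 fold change -0.43, adjusted p = 0.01; -0.42, adjusted p = 0.016). Also called lower in Mperf15ko were MpGCAM1, a gemma cup MYB gene, in controls (0.417 TPM in Mperf15ko against 0.789 TPM in Tak-1; -0.93, adjusted p = 0.047), and MpC1HDZ, an oil body regulator (18.5 TPM in Mperf15ko against 26.3 TPM in Tak-1; -0.50, adjusted p = 0.039), and MpKAR (6.93 TPM in Mperf15ko against 9.06 TPM in Tak-1; -0.38, adjusted p = 0.042) in wounded thalli. None of the 9 markers tested was called higher. MpPRM, a sperm chromatin protein gene, stayed at or below 0.047 TPM. The part of tissue makeup in the genotype differences was not tested, and in whole thalli a change in the share of a cell type and a change of RNA per cell cannot be told apart.

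The genes together summed to 5262 ± 819 TPM in control Mperf15ko and 802 ± 99.7 TPM in control Tak-1 (SD, n = 3 each). In wounded thalli they summed to 3926 ± 397 TPM in Mperf15ko and 860 ± 74.5 TPM in Tak-1. A single gene, Mp7g01940, and 9 neighbouring genes on chromosome 5 made up most of these sums. The other 55 genes summed to 746 ± 203 TPM in control Mperf15ko and 247 ± 21.3 TPM in control Tak-1, and to 979 ± 166 and 366 ± 34.3 TPM in the wounded thalli of Mperf15ko and Tak-1. In control Mperf15ko 36 genes averaged under 10 TPM, 21 lay between 10 and 100 TPM and 8 were above.

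The median ratio of Mperf15ko to Tak-1 was 2.97 in control thalli and 3.04 in wounded thalli, and 9 genes exceeded 5 in both. All 3 Mperf15ko libraries lay above all 3 Tak-1 libraries for 50 of the 65 genes in controls, where 20.3% of all tested genes did so. In wounded thalli this held for 49 genes, against 21.0% of all tested genes, and for 44 genes it held in both conditions. In the fit over all genes 52 of the 62 tested genes were called higher in control Mperf15ko, where 13.6% of all tested genes were, and 46 in wounded Mperf15ko, where 11.8% were. Since the rule used these contrasts, nothing is read from those counts. The genes just inside the rule were Mp7g01890, with ratios of 2.00 in controls and 2.59 in wounded thalli, MpDIR47, with 2.02 and 2.43, and Mp4g20360, with 2.58 and 2.02. Just outside it were Mp2g14290, with 2.15 and 1.999, Mp2g12470, with 1.99 and 2.00, and Mp4g07650, with 2.07 and 1.97.

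**Figure D1:**
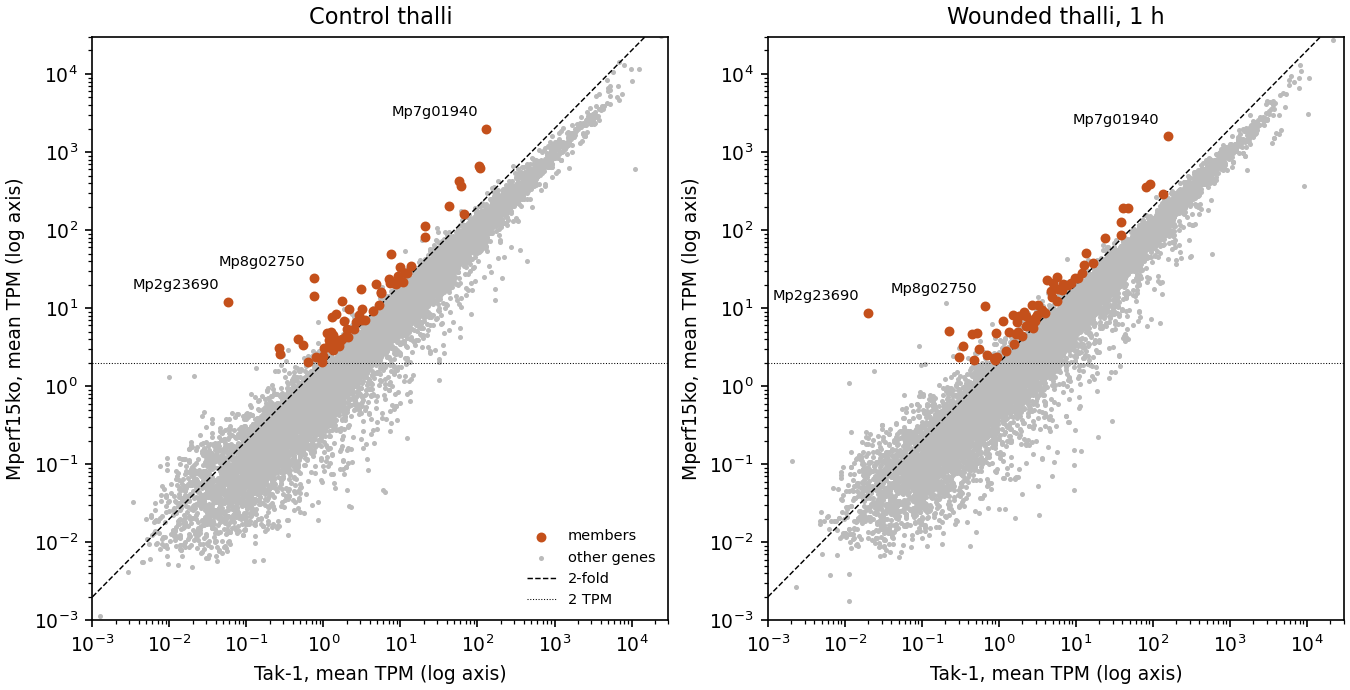
Mean TPM of each gene in Mperf15ko (vertical, log axis) against Tak-1 (horizontal, log axis), in control thalli (left) and thalli 1 h after wounding (right), with the 65 genes in orange, other genes in grey, a dashed line at a ratio of 2 and a dotted line at 2 TPM; genes with a mean of 0 cannot be drawn on log axes. The 65 genes lie along the upper edge of the cloud from 2 TPM upward, and Mp7g01940 is the highest of them in both panels.

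Genes for 3 transporters carried symbols. MpXIP (Mp3g14380) encodes an X intrinsic protein, a channel of the aquaporin family. Its level was 25.3, 31.0 and 29.1 TPM in control Mperf15ko, against 12.6, 12.2 and 9.59 TPM in control Tak-1. After wounding it was 13.3, 13.5 and 14.8 TPM in Mperf15ko, against 4.48, 4.29 and 5.82 TPM in Tak-1. The genotypes did not overlap in either condition, and the wounded Mperf15ko libraries stood above the intact Tak-1 ones. MpXIP fell after wounding in both, by 1.06 on the log2 scale in Mperf15ko (SE 0.137, adjusted p = 1.9e-05) and by 1.26 in Tak-1 (SE 0.147, adjusted p = 5.8e-06). Of the 8 aquaporin genes tested, 3 were called higher and 3 lower in control Mperf15ko; MpTIP1, a vacuolar aquaporin, was among the higher ones (log2 fold change 0.40, adjusted p = 0.015) and MpTIP2 among the lower ones (-1.04, adjusted p = 0.0043).

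MpPTB4 (Mp4g16560) belongs to the PTB phosphate transporters, which are found in algae and early-diverging land plants. It had 16.5, 23.9 and 21.5 TPM in control Mperf15ko, against 4.22, 6.88 and 3.43 TPM in control Tak-1. In wounded thalli it had 9.74, 12.0 and 11.4 TPM in Mperf15ko, against 2.25, 3.24 and 2.66 TPM in Tak-1. Even the lowest wounded Mperf15ko library was above every Tak-1 library. MpPTB4 fell after wounding by 0.90 on the log2 scale in Mperf15ko (SE 0.211, adjusted p = 0.0034) and by 0.83 in Tak-1 (SE 0.236, adjusted p = 0.011). The Tak-1 call was lost without replicate 2 of control Tak-1 (-0.47, adjusted p = 0.058) or replicate 1 of wounded Tak-1 (-0.70, adjusted p = 0.054). The 6 genes MpPTB1 to MpPTB6 lie side by side at Mp4g16560 to Mp4g16610. Among the 6 PTB genes tested, 4 were called higher in control Mperf15ko and none lower, with the same counts in wounded thalli. MpPTB3 averaged 11.9 ± 0.731 TPM in control Mperf15ko and 5.99 ± 1.53 TPM in control Tak-1, and MpPTB8, on another part of chromosome 4, averaged 38.1 ± 7.37 and 21.4 ± 2.90 TPM in the same groups (SD, n = 3 each). The read estimates of MpPTB4 were whole in 11 of 12 libraries.

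MpHKT (Mp7g13910) is a member of the HKT family of sodium and potassium transporters. Its level was low, at 2.29, 1.87 and 2.89 TPM in control Mperf15ko, against 0.583, 1.27 and 0.524 TPM in control Tak-1. Wounded thalli had 1.93, 2.78 and 2.28 TPM in Mperf15ko, against 0.526, 1.13 and 0.931 TPM in Tak-1. The groups did not overlap, and the wound responses passed the test in neither genotype (log2 fold change -0.01, SE 0.317, adjusted p = 0.98 in Mperf15ko; 0.14, SE 0.350, adjusted p = 0.77 in Tak-1).

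MpDIR46, MpDIR47 and MpDIR48 (Mp3g24160, Mp3g24150 and Mp3g24140) are adjacent genes for dirigent proteins, which steer the coupling of phenoxy radicals in other plants. Their read estimates were whole numbers in every library. MpDIR46 had 17.2, 43.6 and 23.2 TPM in control Mperf15ko, against 14.8, 10.9 and 10.7 TPM in control Tak-1. It had 20.4, 27.6 and 24.7 TPM in wounded Mperf15ko, against 11.3, 7.75 and 10.3 TPM in wounded Tak-1. MpDIR48 had 17.1, 40.0 and 20.3 TPM in control Mperf15ko, against 11.6, 7.52 and 8.68 TPM in control Tak-1. Replicate 2 of control Mperf15ko was the highest library for all 3 genes. MpDIR47 was the one of the 3 that overlapped in controls, with 12.2, 34.8 and 17.7 TPM in Mperf15ko against 12.7, 10.1 and 9.14 TPM in Tak-1. None of the 3 passed the test of a wound response (adjusted p = 0.37 to 0.99 in Mperf15ko and 0.26 to 0.50 in Tak-1). Their direction was not that of most called genes with dirigent symbols: of 51 tested, 5 were called higher and 22 lower in control Mperf15ko, and 7 higher and 19 lower in wounded Mperf15ko. Of all tested genes, 14.6% were called lower in control and 11.7% in wounded Mperf15ko, beside the shares called higher given above.

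Class III peroxidases are secreted enzymes that oxidise phenolics in the cell wall. MpPOD97 (Mp5g13640) had 4.47, 3.62 and 4.10 TPM in control Mperf15ko, against 0.248, 0.831 and 0.335 TPM in control Tak-1. After wounding it had 2.67, 2.97 and 1.36 TPM in Mperf15ko, against 0.588, 0.166 and 0.157 TPM in Tak-1. Its ratios of 8.62 and 7.68 were the largest among the genes with symbols. MpPOD114 (Mp5g17090) averaged 5.47 ± 1.54 TPM in control Mperf15ko and 2.51 ± 0.359 TPM in control Tak-1, and 4.67 ± 1.06 and 1.65 ± 0.222 TPM in the wounded thalli of Mperf15ko and Tak-1 (SD, n = 3 each). Read estimates were whole in 3 of 12 libraries for MpPOD97 and in 1 of 12 for MpPOD114, so reads of both were divided with other transcripts. The peroxidase family leaned the other way: of 122 genes tested, 9 were called higher and 54 lower in control Mperf15ko, and 10 higher and 47 lower in wounded Mperf15ko.

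MpDOXC31 (Mp6g01210) encodes a 2-oxoglutarate-dependent dioxygenase of the DOXC class, whose members oxidise specialised metabolites and hormones in other plants. Its level was 11.9, 20.5 and 15.2 TPM in control Mperf15ko, against 4.78, 7.40 and 4.47 TPM in control Tak-1. In wounded thalli it was 16.2, 23.1 and 10.9 TPM in Mperf15ko, against 4.47, 4.34 and 5.40 TPM in Tak-1, again with no overlap. Among 29 DOXC genes tested, 7 were called higher and 4 lower in control Mperf15ko. MpCAT4 (Mp5g07320) averaged 9.72 ± 0.839 TPM in control Mperf15ko and 2.14 ± 0.883 TPM in control Tak-1, and 7.93 ± 2.30 and 1.84 ± 0.130 TPM in the wounded thalli of Mperf15ko and Tak-1 (SD, n = 3 each).

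MpBHLH31 (Mp2g07110), a basic helix-loop-helix protein, was the only one of the 65 genes whose symbol names a transcription factor. It had 8.20, 8.23 and 10.8 TPM in control Mperf15ko, against 5.15, 4.49 and 3.67 TPM in control Tak-1. Wounded thalli had 6.16, 6.36 and 7.91 TPM in Mperf15ko, against 2.48, 2.92 and 3.36 TPM in Tak-1. The groups did not overlap in either condition. MpBHLH31 fell after wounding by 0.60 on the log2 scale in Tak-1 (SE 0.145, adjusted p = 0.0032) and by 0.41 in Mperf15ko (SE 0.138, adjusted p = 0.026); the Mperf15ko call was lost without replicate 3 of control Mperf15ko (-0.27, adjusted p = 0.16) and without replicate 1 (-0.37, adjusted p = 0.082) or replicate 2 (-0.39, adjusted p = 0.083) of wounded Mperf15ko, and without both Mperf15ko libraries of any 1 replicate number (adjusted p = 0.066 to 0.083). Of 37 bHLH genes tested, 13 were called higher and 4 lower in control Mperf15ko, and 11 higher and none lower in wounded Mperf15ko.

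**Figure D2:**
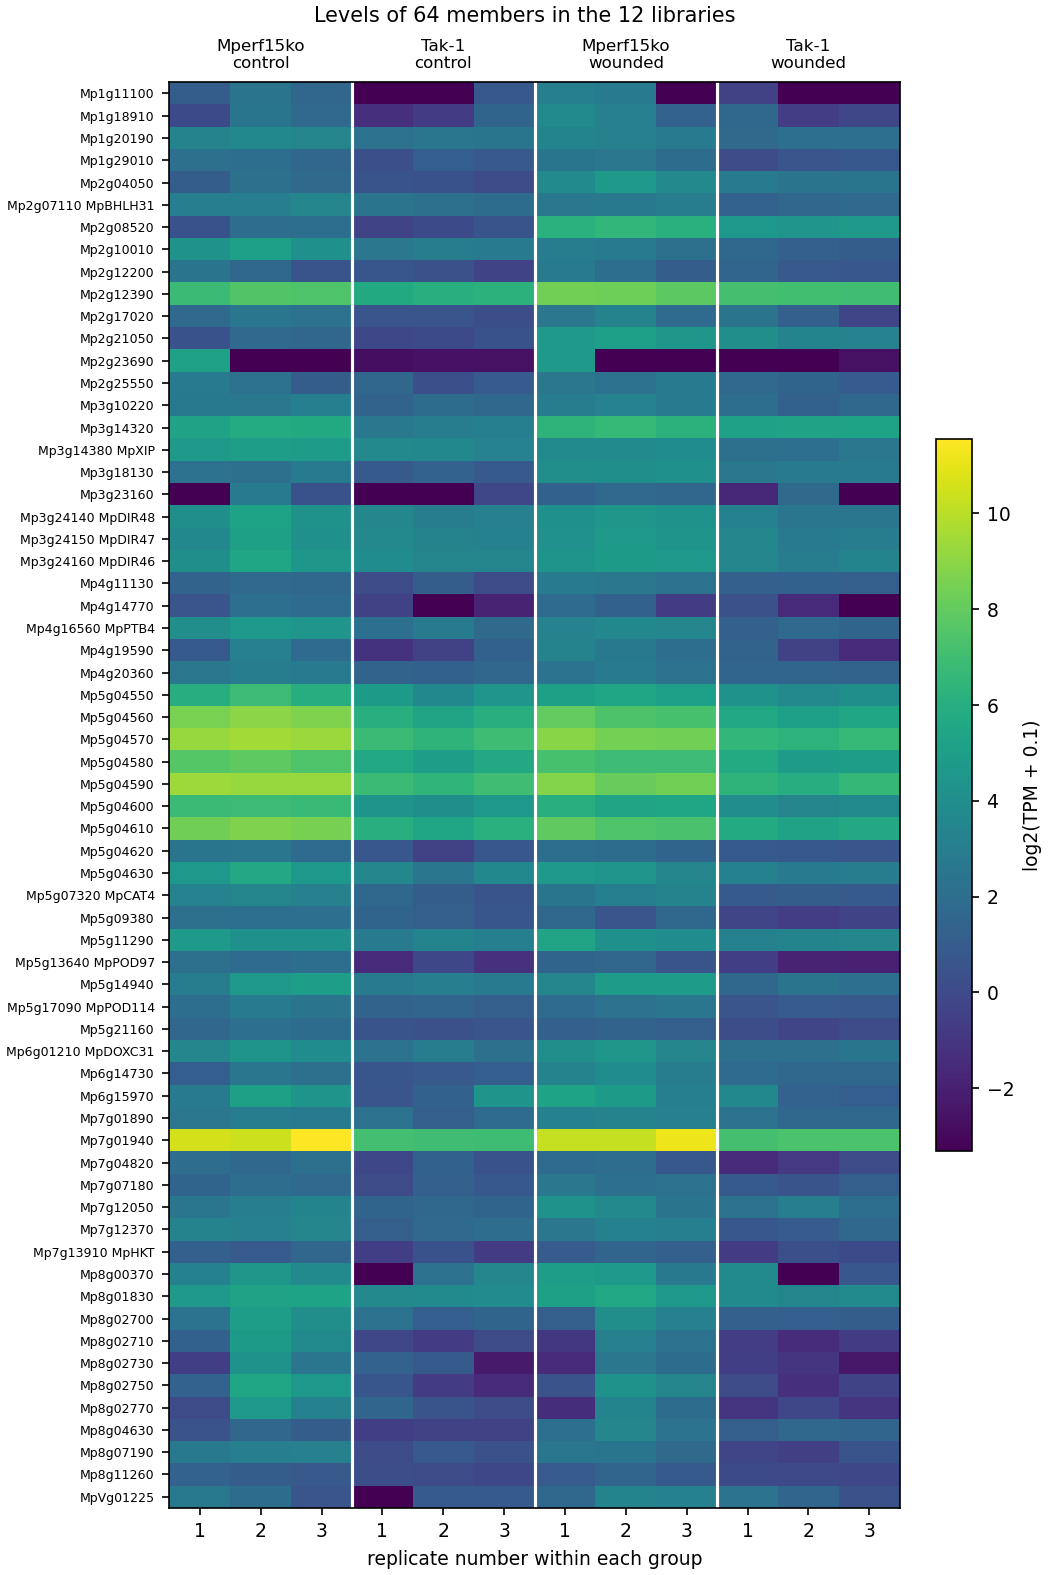
Level of 64 of the 65 genes (rows, by locus number) in the 12 libraries (columns, by group and replicate number), coloured by log2(TPM + 0.1). Mp7g01940 and the block Mp5g04560 to Mp5g04610 are the brightest rows in Mperf15ko, Mp2g23690 is bright in Mperf15ko replicate 1 alone, and Mp2g08520 is bright in the wounded groups of both genotypes.

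The other 54 genes had no symbol in the RefSeq table of assembly MpTak2_v7.1, which held 55 of the 65 genes by locus number and 89.5% of all genes. Their products are therefore not named here. As a set the 65 genes were short, with a median longest transcript of 1307 nt against 2284 nt over all tested genes, and 87.7% had 1 annotated transcript against 81.0% of tested genes. Their reads were more often shared: 24 genes (36.9%) had whole-number read estimates in every library (within 0.01), against 67.1% of tested genes. Another 5 genes had whole estimates in 9 to 11 libraries. For the remaining 36, estimates were fractional in more libraries, so reads were divided between transcripts and the split from copies is uncertain. Among these 36 were all genes of the runs described below, MpBHLH31, MpPOD97 and MpPOD114.

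Mp7g01940 was the most abundant of the 65 genes and its read estimates were whole numbers in every library. It had 1580.0, 1398 and 3023 TPM in control Mperf15ko, against 138, 126 and 123 TPM in control Tak-1. In wounded thalli it had 1198, 1210.2 and 2337 TPM in Mperf15ko, against 143, 162 and 161 TPM in Tak-1. Each Mperf15ko library was far above each Tak-1 library, and replicate 3 was the highest in both Mperf15ko groups. Ratios of the means were 15.5 in controls and 10.2 in wounded thalli. The tested genes next to it, Mp7g01930 and Mp7g01950, were not called between the genotypes in either condition (adjusted p = 0.10 to 0.81). Beyond them, Mp7g01960 was called in neither condition (adjusted p = 0.15 and 0.19). Mp7g01920 was called higher in wounded Mperf15ko (log2 fold change 0.575, adjusted p = 0.014) and not in controls (0.159, adjusted p = 0.44). Mp7g01890, another of the 65 genes, lay within 5 loci. Neither wound response of Mp7g01940 passed the test (log2 fold change -0.36, SE 0.295, adjusted p = 0.36 in Mperf15ko; 0.26, SE 0.297, adjusted p = 0.50 in Tak-1).

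Mp8g07190, another gene without a symbol and with whole-number read estimates, had 6.26, 8.01 and 8.90 TPM in control Mperf15ko, against 0.983, 1.68 and 1.18 TPM in control Tak-1. It had 5.63, 5.44 and 3.45 TPM in wounded Mperf15ko, against 0.749, 0.608 and 1.38 TPM in wounded Tak-1. The lowest Mperf15ko library of this gene was more than any Tak-1 library. Mp4g14770, by contrast, had a ratio of 11.6 in controls that rested on few reads: 25.0, 66.9 and 57.3 estimated reads in Mperf15ko against 14.1, 0 and 3.39 in Tak-1. In wounded thalli its groups overlapped, at 3.55, 2.40 and 0.498 TPM in Mperf15ko and 1.18, 0.244 and 0 TPM in Tak-1.

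The 65 genes lay mainly on the 8 autosomes, with 16 on chromosome 5 and 10 each on chromosomes 2 and 8. Of the 14246 tested genes, 1751 lay on chromosome 5, 1936 on chromosome 2 and 1339 on chromosome 8. Among the 55 placed in the reference gene order, 20 had another of the 65 genes within 5 loci. Most of these 20 came from 2 runs, one on chromosome 5 and one on chromosome 8. How many neighbours a like number of other genes would have was not tested.

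The chromosome 5 run was Mp5g04550 to Mp5g04630, 9 consecutive locus numbers that all met the rule, and it held 7 of the 10 most abundant of the 65 genes in control Mperf15ko. Its summed level was 2402, 2759 and 2384 TPM in control Mperf15ko, against 471, 318 and 489 TPM in control Tak-1. After wounding the sum was 1707, 1200.2 and 1190.3 TPM in Mperf15ko, against 379, 274 and 361 TPM in Tak-1. The genotypes did not overlap for the sum or for any of the 9 genes. The most abundant, Mp5g04570, had 618, 712 and 640 TPM in control Mperf15ko, against 115, 82.0 and 120 TPM in control Tak-1. Mp5g04590 averaged 631 ± 37.7 TPM in control Mperf15ko and 108 ± 21.7 TPM in control Tak-1, and Mp5g04560 averaged 428 ± 63.4 and 57.2 ± 14.2 TPM in the same groups (SD, n = 3 each). The lowest of the 9, Mp5g04620, averaged 4.95 ± 1.18 TPM in control Mperf15ko and 1.24 ± 0.499 TPM in control Tak-1.

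The locus before the run, Mp5g04540, was also higher in control Mperf15ko, at 64.3 ± 13.6 TPM against 38.3 ± 12.8 TPM in control Tak-1 (log2 fold change 0.74, adjusted p = 0.026), and did not pass in wounded thalli (0.14, adjusted p = 0.69). The 3 loci after the run went the other way. Mp5g04640 to Mp5g04660 summed to 234 ± 85.7 TPM in control Mperf15ko and 721 ± 188 TPM in control Tak-1, and to 203 ± 106 and 764 ± 187 TPM in the wounded thalli of Mperf15ko and Tak-1 (SD, n = 3 each). Mp5g04650 and Mp5g04660 were called lower in control Mperf15ko (log2 fold change -2.06, adjusted p = 0.0086; -2.28, adjusted p = 0.0062), and Mp5g04640 passed in wounded thalli (-1.49, adjusted p = 0.028) but not in controls (-1.15, adjusted p = 0.06). Over all 13 genes from Mp5g04540 to Mp5g04660 the sum was 2813 ± 208 TPM in control Mperf15ko and 1186 ± 285 TPM in control Tak-1, and 1608 ± 395 and 1138 ± 235 TPM in the wounded thalli of Mperf15ko and Tak-1. Unlike the sums of the 9 genes, those of the 13 overlapped in wounded thalli, at 2061, 1338 and 1424 TPM in Mperf15ko and 1403, 959 and 1051 TPM in Tak-1. Reads of all 9 genes were shared with other transcripts. The summed reads of the 9 genes, and of the 13, were whole in none of the 12 libraries, so reads were also shared with genes outside this stretch, and the division of reads inside and around the run is uncertain.

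**Figure D3:**
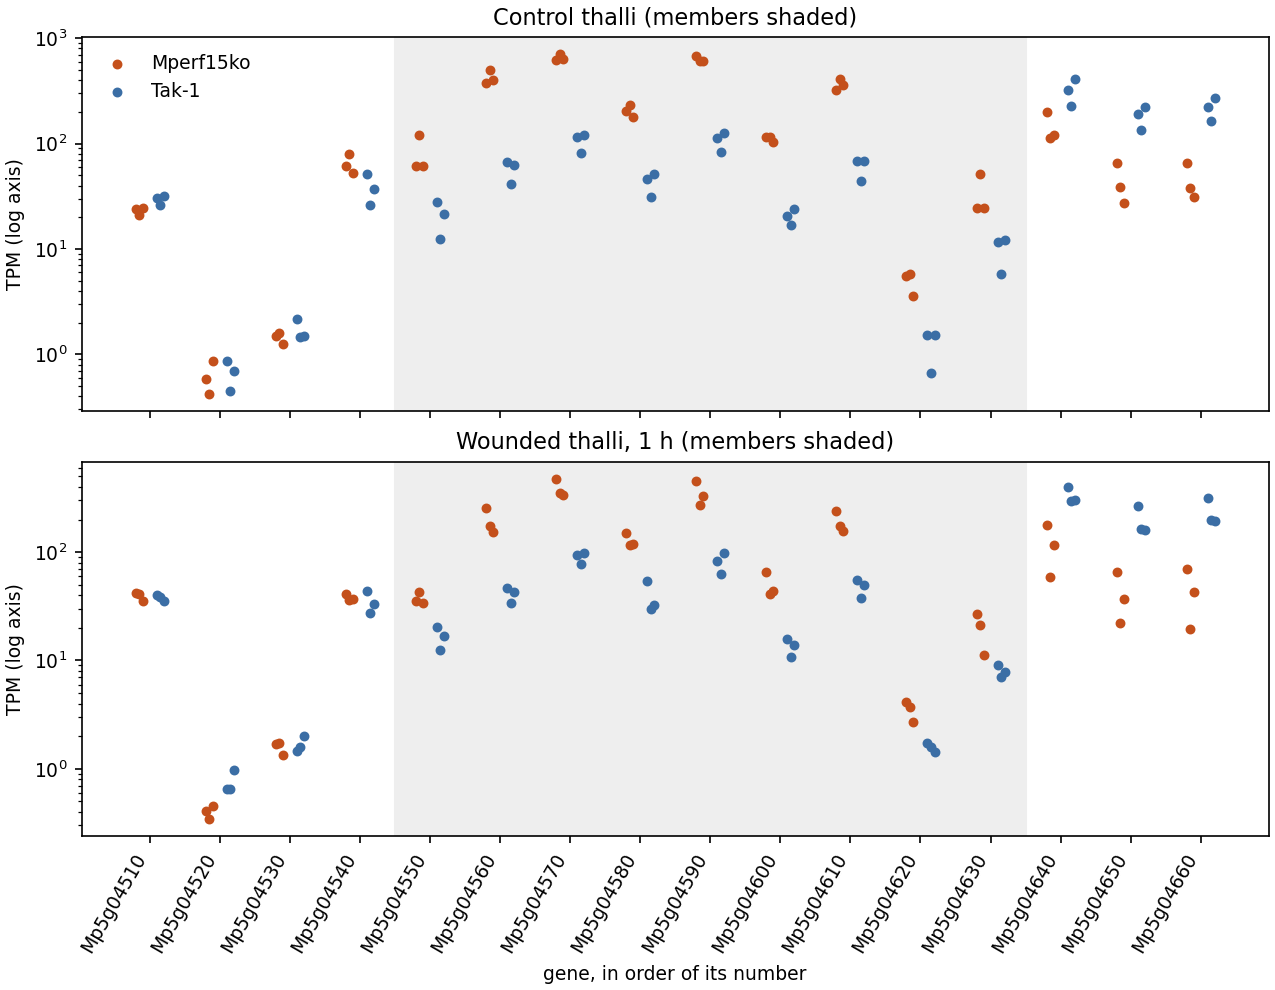
TPM (log axis) of genes Mp5g04510 to Mp5g04660 in order of locus number, 1 point per library, with Mperf15ko in orange left of Tak-1 in blue, in control thalli (top) and thalli 1 h after wounding (bottom); the shaded genes are the 9 that met the rule. Mperf15ko lies above Tak-1 throughout the shaded run and below it at Mp5g04650 and Mp5g04660.

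The chromosome 8 run held 5 of the 65 genes, Mp8g02700, Mp8g02710, Mp8g02730, Mp8g02750 and Mp8g02770. Their sum was 11.5, 151 and 68.4 TPM in control Mperf15ko replicates 1 to 3, against 12.1, 6.24 and 4.96 TPM in control Tak-1. In wounded thalli the sum was 4.43, 60.8 and 31.9 TPM in Mperf15ko, against 4.73, 3.81 and 3.79 TPM in Tak-1. Replicate 1 of Mperf15ko lay within or near the Tak-1 range in both conditions, while replicates 2 and 3 were above every Tak-1 library. Mp8g02750 showed the largest fitted genotype difference of the 65 genes in controls (log2 fold change 4.91), from 2.48, 45.1 and 24.6 TPM in Mperf15ko against 1.48, 0.522 and 0.249 TPM in Tak-1. Reads of the 10 loci from Mp8g02690 to Mp8g02780 summed to whole numbers in 12 of 12 libraries, so sharing of reads stayed inside this stretch. The 10 loci summed to 46.4, 199.9 and 93.5 TPM in control Mperf15ko, against 54.2, 43.6 and 31.3 TPM in control Tak-1. After wounding they summed to 16.5, 83.5 and 43.0 TPM in Mperf15ko, against 16.0, 18.2 and 17.4 TPM in Tak-1. For this sum, replicate 1 of Mperf15ko lay inside the Tak-1 range in both conditions.

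A difference between Mperf15ko libraries that recurred under the same replicate number in both conditions was also seen in other genes, picked out after their values were seen. Mp2g23690 had 36.3 TPM (604 estimated reads) in replicate 1 of control Mperf15ko and 26.3 TPM (317 estimated reads) in replicate 1 of wounded Mperf15ko. It was listed at 0 in Mperf15ko replicates 2 and 3 of both conditions and at or below 0.067 TPM in all 6 Tak-1 libraries. Its place among the 65 genes thus rests on 2 libraries. Mp5g14940 had 7.42, 24.5 and 31.0 TPM in control Mperf15ko, against 7.10, 8.28 and 6.83 TPM in control Tak-1, and 10.7, 29.6 and 28.7 TPM in wounded Mperf15ko, against 3.18, 5.30 and 4.25 TPM in wounded Tak-1. Replicate 1 was the low one in both Mperf15ko groups, and in controls it lay inside the Tak-1 range.

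The median coefficient of variation over the 3 libraries of a group was 22.5% to 27.5% for the 65 genes and 9.25% to 12.2% for all tested genes. The choice of members depended on single libraries accordingly. With each of the 12 libraries left out in turn, the rule took 59 to 75 genes, and 36 of the 65 genes met it every time. Without both Mperf15ko libraries of 1 replicate number, a setting chosen after seeing the data, it took 79 genes without replicate 1, 56 without replicate 2 and 77 without replicate 3, and lost 9, 15 and 4 of the 65.

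**Figure D4:**
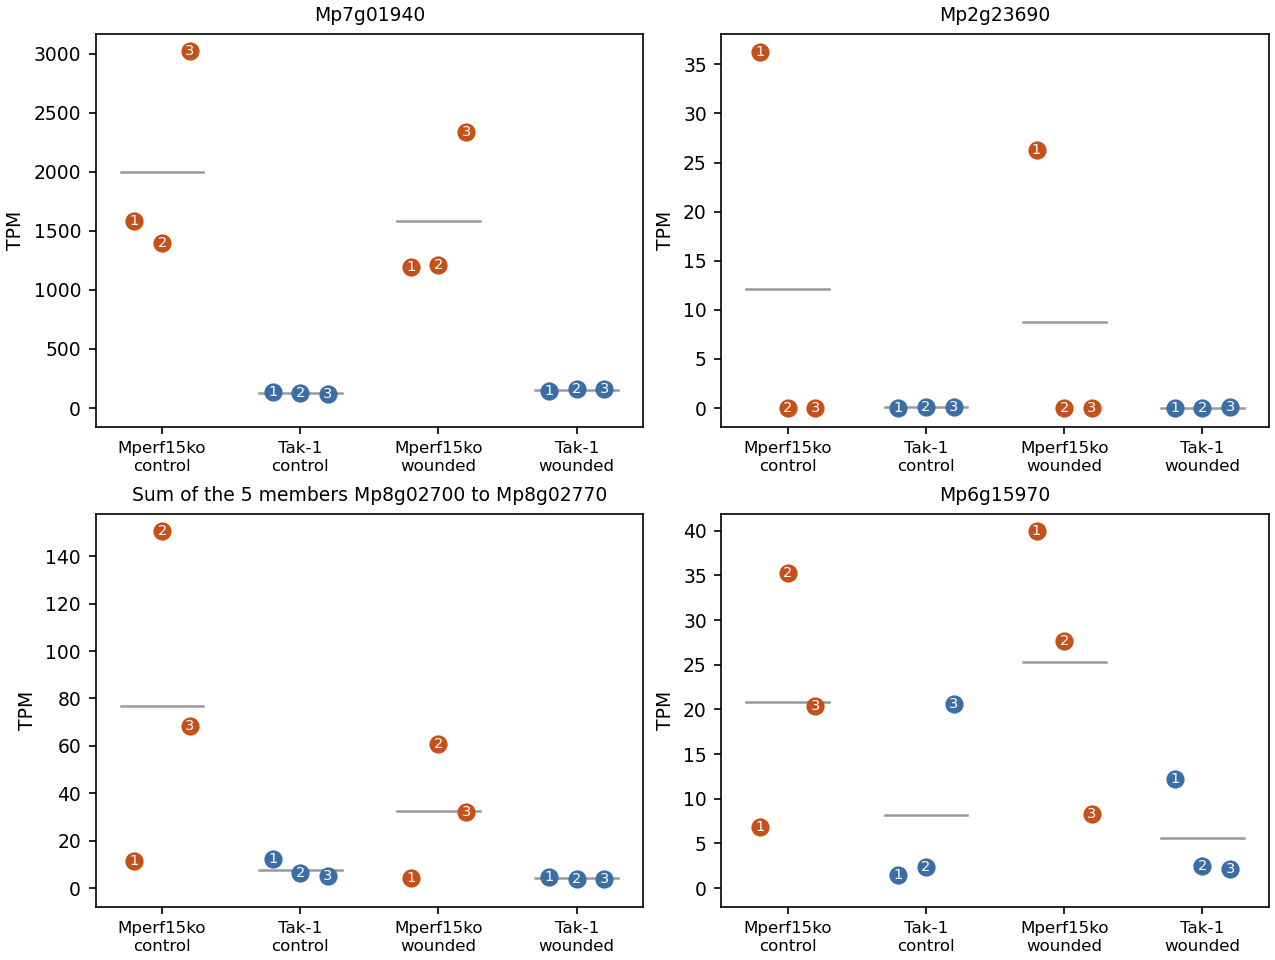
TPM per library (points, numbered by replicate) and group mean (grey line) for Mp7g01940, Mp2g23690, the sum of the 5 genes Mp8g02700 to Mp8g02770 and Mp6g15970, with Mperf15ko in orange and Tak-1 in blue. Mperf15ko replicate 3 is highest for Mp7g01940, replicate 1 alone holds Mp2g23690, replicate 1 is lowest for the chromosome 8 run, and the genotypes overlap for Mp6g15970.

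Of the 62 tested genes, 40 were called after wounding in neither genotype and 22 in Mperf15ko, Tak-1 or both. Among the 22, 8 rises and 6 falls were called in both genotypes, and 1 rise and 7 falls in Mperf15ko only. The rule sets the same lower limit on the genotype ratio in both conditions. It sets no upper limit and does not ask for like ratios. How far it favours like calls was not tested. All 65 genes also had the higher mean level in Mperf15ko by the rule, which can ease a call there. How far this raised the number of Mperf15ko calls was not tested. In Mperf15ko 9 of the 62 tested genes rose, where 23.5% of all tested genes rose, and 13 fell, where 20.1% fell. In Tak-1 8 rose, where 23.4% of all tested genes did, and 6 fell, where 22.8% did. The 8 genes that rose in Tak-1 also rose in Mperf15ko, the 6 that fell in Tak-1 also fell in Mperf15ko, and no gene was called in opposite directions. The median log2 fold change over the 62 genes was -0.21 in Mperf15ko and -0.24 in Tak-1, beside -0.015 and -0.045 over all tested genes in the same genotypes. With upper quartile scaling, the Tak-1 calls split into 7 higher and 11 lower.

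Mp2g08520 responded most. It had 72.1, 93.3 and 71.0 TPM in wounded Mperf15ko, against 1.26, 3.96 and 4.03 TPM in control Mperf15ko. In Tak-1 it had 24.5, 21.4 and 26.6 TPM after wounding, against 0.743, 0.932 and 1.38 TPM in controls. The log2 fold change was 4.70 in Mperf15ko (SE 0.302, adjusted p = 2.8e-08) and 4.56 in Tak-1 (SE 0.348, adjusted p = 1.3e-07), and the difference did not pass the test (0.14, SE 0.554, adjusted p = 0.96). Control levels of Mp2g08520 overlapped between the genotypes, and wounded levels did not.

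Mp2g21050 rose by 3.51 in Mperf15ko and 3.59 in Tak-1 on the log2 scale (SE 0.338 and 0.367; adjusted p = 5.5e-06 and 8.6e-06). It had 26.6, 33.9 and 23.0 TPM in wounded Mperf15ko, against 1.25, 3.24 and 2.92 TPM in control Mperf15ko. Mp2g04050 rose by 2.46 and 2.27, Mp8g04630 by 1.78 and 2.11, and Mp3g18130 by 1.67 and 1.71 in the same order of genotypes, with adjusted p at or below 0.0018. Mp2g12390, the most abundant of the risers, had 329.8, 304 and 224 TPM in wounded Mperf15ko, against 115, 184 and 178 TPM in control Mperf15ko (log2 fold change 0.88, SE 0.199, adjusted p = 0.0033). In Tak-1 it had 146, 134 and 127 TPM after wounding, against 52.7, 68.1 and 77.1 TPM in controls (1.16, SE 0.201, adjusted p = 0.00048). Transcript Mp2g12390.1 averaged 132 TPM in wounded Mperf15ko and 35.5 TPM in wounded Tak-1, or 46.2% and 26.2% of the gene, beside 49.8% and 53.6% in the controls of Mperf15ko and Tak-1; reads were divided between the transcripts, and these shares were not tested.

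Among the falls called in both genotypes, that of Mp2g10010 was the largest in Mperf15ko. It had 7.44, 6.72 and 4.41 TPM in wounded Mperf15ko, against 19.4, 33.4 and 17.4 TPM in control Mperf15ko (log2 fold change -1.90, SE 0.275, adjusted p = 7.9e-05). In Tak-1 it had 3.07, 2.28 and 2.03 TPM after wounding, against 5.95, 7.81 and 7.35 TPM in controls (-1.54, SE 0.300, adjusted p = 0.00087). Wounded Mperf15ko thus lay in and around the control Tak-1 range. Mp5g09380 fell by 0.78 in Mperf15ko (adjusted p = 0.027) and by 1.60 in Tak-1 (adjusted p = 0.00045), and the difference did not pass the test (0.83, SE 0.396, adjusted p = 0.43). Its Mperf15ko call was lost without any 1 library of control Mperf15ko (adjusted p = 0.051 to 0.06) and without replicate 2 of wounded Mperf15ko (-0.51, adjusted p = 0.10).

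The difference of the wound responses is, on the log scale, the difference of the genotype ratios. The rule sets a lower limit of 2 on each ratio, so genes whose response brings 1 ratio under it are left out. Its effect on the number of calls was not tested. Mp3g14320 was the 1 gene of the 62 called, where 0.667% of all tested genes were called lower and 0.400% higher in Mperf15ko. It had 82.1, 98.3 and 77.1 TPM in wounded Mperf15ko, against 38.5, 57.1 and 53.6 TPM in control Mperf15ko. In Tak-1 it had 36.4, 38.2 and 40.1 TPM after wounding, against 6.17, 7.94 and 8.38 TPM in controls. The genotypes did not overlap within a condition, nor did wounded and control thalli within a genotype, while wounded Tak-1 overlapped the lower end of control Mperf15ko. The gene rose by 0.80 on the log2 scale in Mperf15ko (SE 0.161, adjusted p = 0.0012) and by 2.37 in Tak-1 (SE 0.179, adjusted p = 1.9e-07), a difference of -1.56 (SE 0.238, adjusted p = 0.011). The ratio of the genotypes was 6.63 in controls and 2.24 in wounded thalli. Transcript Mp3g14320.4 carried 62.2% of the level in the wounded thalli of both genotypes, 74.2% in control Mperf15ko and 70.5% in control Tak-1.

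More falls were called in Mperf15ko (13) than in Tak-1 (6), and the chromosome 5 run held most of this difference. The 13 were 21.0% of the tested members, near the 20.1% of all tested genes. Of the 9 genes in the run, 7 were called lower in Mperf15ko and 1, Mp5g04600, in Tak-1. Outside the run 6 genes were called lower in Mperf15ko and 5 in Tak-1. Levels were higher in Mperf15ko by the rule, which can ease a call there, and its part in these counts was not tested. Mp5g04600 fell by 1.14 in Mperf15ko (SE 0.194, adjusted p = 0.00036) and by 0.64 in Tak-1 (SE 0.218, adjusted p = 0.03). The Tak-1 call was lost without replicate 3 of control Tak-1 (-0.44, adjusted p = 0.13) and without replicate 2 (-0.46, adjusted p = 0.13) or replicate 3 (-0.62, adjusted p = 0.076) of wounded Tak-1. The log2 difference between the genotypes' responses was negative for each of the 9 genes, at -0.40 to -0.80, and passed the test for none (adjusted p = 0.43 to 0.86). A weaker fall of the run in Tak-1 is therefore not shown. The call of Mp5g04580 in Mperf15ko (-0.66, SE 0.241, adjusted p = 0.045) was lost in 10 of 21 alternative settings, among them each that left out 1 library of control Mperf15ko (adjusted p = 0.051 to 0.11), replicate 2 or 3 of wounded Mperf15ko (adjusted p = 0.12 each) or replicate 1 of control Tak-1 (adjusted p = 0.068). Mp6g14730 was the 1 gene called higher in Mperf15ko (1.45, SE 0.345, adjusted p = 0.0033) and not in Tak-1 (0.88, SE 0.385, adjusted p = 0.077). In Tak-1 it had 3.63, 3.07 and 3.06 TPM after wounding, against 1.49, 1.69 and 2.06 TPM in controls. The difference of its responses did not pass the test (0.57, SE 0.519, adjusted p = 0.75).

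**Figure D5:**
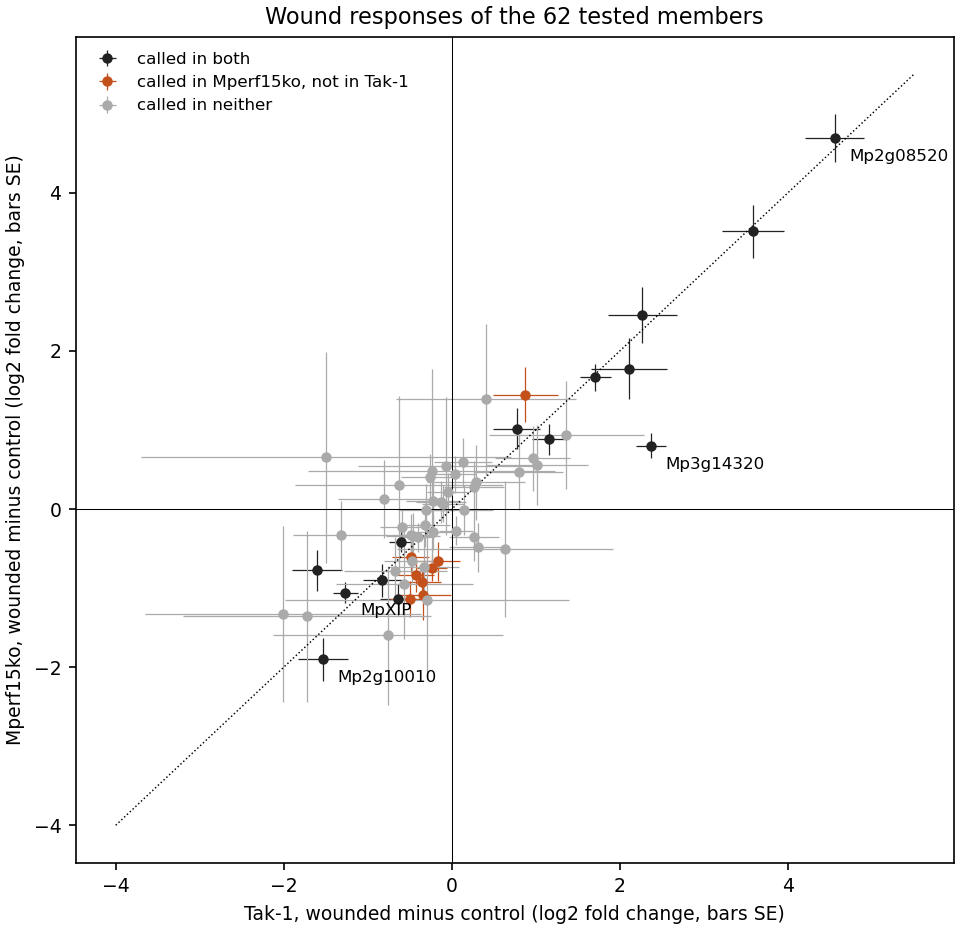
Log2 fold change of wounded over control thalli in Mperf15ko (vertical) against Tak-1 (horizontal) for the 62 tested genes, with SE bars; black points were called in both genotypes, orange points in Mperf15ko and not in Tak-1, grey points in neither, and the dotted line marks equal responses. Mp2g08520 lies on the line at the upper right, and Mp3g14320, at 0.80 against 2.37, lies farthest below it among the called genes.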

How the data were processed

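RNA of 12 libraries was sequenced after preparation with the TruSeq Stranded mRNA kit, per the labels' protocols. Per the file headers, the deposited Salmon tables list a TPM and an estimated count of reads for every transcript. CASAVA and Salmon 0.7.2 appear in the submitters' processing notes. Not given in the sources used here are the transcript set, its build and the options of Salmon. The deposited TPM values and the deposited estimated counts of 24751 transcripts were summed to 19421 genes, and the counts were rounded to whole numbers. Levels are deposited TPM; the mean and SD are over 3 libraries.

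Tests used edgeR 4.0.16 (R 4.3.3; TMM scaling, filterByExpr, robust quasi-likelihood fit of 4 group means) over 14246 genes, with Benjamini-Hochberg adjustment over all of them and a threshold of 0.05. The common biological coefficient of variation was 0.126. The scripts were tested on simulated data. Libraries of a group differed beyond sampling noise (chi-square of 15.6 to 62.9 per gene). That replicates were separate sets of plants is per the labels; p-values measure the spread between these sets.

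The 65 genes and all lists were chosen with earlier results of these data known. Genes were named by a rule: MpERF15, the 10 most abundant, the 10 largest genotype differences in control and the 5 largest in wounded thalli, up to 6 rises and 6 falls called in both genotypes, calls in the difference, genes with symbols, genes at the threshold, and runs. The families given came from gene symbols of the RefSeq table (assembly MpTak2_v7.1), matched by locus number; 17386 genes matched. The values of 1 of the 65 genes are not reported here. Promoter motifs and sequences were not analysed here, nor were marker genes whose symbols had no match. The alternatives tried were other scalings, DESeq2 1.42.0, other filters, a replicate block, genes with whole counts and leaving out libraries.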

Additional observations from a re-analysis of the deposited data

Results flagged for a closer look

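The wound response of Mp3g14320 differed between the genotypes by a test of the difference itself. The gene rose by 0.80 on the log2 scale in Mperf15ko and by 2.37 in Tak-1, a difference of -1.56 (edgeR interaction contrast, SE 0.238, adjusted p = 0.011). All 3 wounded libraries were above all 3 control libraries in each genotype, and the call held in all 22 alternative settings. The rule asks for a ratio of at least 2 in each condition. It leaves out genes whose difference brings 1 ratio under 2, but it sets no upper limit on the difference and does not fix its sign. Its read estimates were whole numbers in every library.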

How the results depend on the processing

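The number of genes that meet the rule depended on its limits: it was 101 with a floor of 1 TPM, 36 with 5 TPM, 258 at 1.5-fold and 23 at 3-fold. It was 69 with medians in place of means, of which 55 were among the 65, and 66 with TMM-scaled TPM. Leaving out 1 library gave 59 to 75 genes, 18 to 23 wound calls in Mperf15ko, 12 to 15 in Tak-1, 1 in the difference, and 38 to 53 genotype calls in control and 39 to 50 in wounded thalli. Among genes with whole counts, only 24 of the 65 could be tested, by construction; 10 were called after wounding in Mperf15ko (6 higher, 4 lower), 8 in Tak-1 (6 higher, 2 lower), and 24 and 23 between genotypes in control and wounded thalli.

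Of the wound calls, 15 of 22 in Mperf15ko and 11 of 14 in Tak-1 held in every setting, and no call changed sign. The replicate numbers were not taken to pair the libraries: deviations of same-numbered libraries correlated at -0.313 to 0.225, above 0.1 in 4 of 18 pairs. Between control and wounded Mperf15ko the 3 were positive (0.089, 0.225 and 0.087), a hint from the data only. With a replicate block there were 22 wound calls in Mperf15ko, 17 in Tak-1, 1 in the difference, and 50 and 47 between genotypes in control and wounded thalli. The unadjusted p of the difference was under 0.05 for 1 of the 62 genes, and for 12.0% of all tested genes. The rule leaves out genes whose difference brings a ratio under its limit, and its effect on this count was not tested. DESeq2 also called 1 of the 62 genes in the difference. Shared reads limit 36 of the 65 genes, and 3 libraries per group limit all. Mp5g21160 (6 settings) and Mp4g11130 in Tak-1 (5) also lost a wound call.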

Other observations

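The 5 genes Mp6g15970, Mp8g00370, Mp4g19590, Mp1g18910 and Mp1g11100, picked out after their values were seen, had the same highest library in each group, as did 6 others of the 65 genes (Mp2g12390 and 5 of the chromosome 5 run). Mp6g15970 had 40.0, 27.6 and 8.33 TPM in wounded Mperf15ko, against 6.81, 35.3 and 20.4 TPM in control Mperf15ko. It had 12.2, 2.52 and 2.09 TPM in wounded Tak-1, against 1.43, 2.40 and 20.6 TPM in control Tak-1. Mp4g19590 had 9.84, 6.47 and 4.09 TPM in wounded Mperf15ko, against 1.73, 8.92 and 3.60 TPM in control Mperf15ko. It had 2.53, 0.626 and 0.244 TPM in wounded Tak-1, against 0.360, 0.633 and 2.36 TPM in control Tak-1. Mp1g11100 had 8.41, 6.92 and 0 TPM in wounded Mperf15ko, against 0.664, 0 and 0 TPM in wounded Tak-1, and 1.96, 5.19 and 2.87 TPM in control Mperf15ko, against 0, 0 and 1.61 TPM in control Tak-1. For all 5 genes, replicate 3 was the highest library of control Tak-1 and replicate 1 the highest of both wounded groups, and replicate 2 was the highest of control Mperf15ko. None of the 5 passed the test of a wound response in either genotype.

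MpVg01225 was the only one of the 65 genes on the V chromosome, which male plants carry. It had 3.14, 10.4 and 9.15 TPM in wounded Mperf15ko, against 4.95, 2.78 and 1.18 TPM in wounded Tak-1, and the genotypes overlapped in both conditions. Between 43 and 51 of 154 V-linked genes reached 1 TPM in each of the 12 libraries, of Mperf15ko as of Tak-1.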
